A study of Mus musculus with 32 samples.

Results

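PRDM9 sites of class 1b are places where PRDM9 was bound, where the recombinase DMC1 marked broken ends in the same strain, and where H3K4me3 was found in both strains studied. They were selected on 3 deposited readouts. A PRDM9 interval was a member when it shared at least 1 bp with the central 400 bp of a DMC1 interval of its own strain and when common H3K4me3 covered at least 10% of it. In B6 mice 72 of 2601 PRDM9 intervals met this rule, and in RJ2 mice 270 of 10121. The DMC1 overlap and the H3K4me3 cover therefore describe the members and are not findings about them.

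PRDM9 is a meiosis-specific protein with an array of zinc fingers that reads DNA and a SET domain that methylates histone H3 on lysine 4 and lysine 36. At most sites that it binds, H3K4me3 appears on the flanking nucleosomes, SPO11 cuts the DNA nearby, and DMC1 coats the resected single strands. Because the zinc fingers differ between *Prdm9* alleles, most such marks are found in mice with 1 allele and not in mice with another. H3K4me3 also marks promoters and other regulatory elements in every tissue without any need for PRDM9. At a site where H3K4me3 is present whatever the allele, the part of the mark that PRDM9 placed cannot be told apart from the part that was there without it.

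B6 mice (C57BL/6JOlaHsd) carry *Prdm9*Dom2, and RJ2 mice (B10.MOLSGR(A)-(D17Mit58-D17Jcs11)/Bdm) carry *Prdm9*Cst on a B10 background. PRDM9 was mapped by ChIP-seq in whole testes at 13 days after birth, in 2 replicates for B6, for RJ2 and for Spo11KO mice (Spo11tm1M, with the Dom2 allele and without SPO11), and in 1 library of Prdm9KO mice (B6;129P2-Prdm9tm1Ymat/J). DMC1 was mapped in whole testes at 5 weeks in 2 replicates per strain, and H3K4me3 in pachytene cells of adults with 1 library per strain. The authors deposited 1 list of intervals per assay on the mouse build mm9, with positions only. No value here could therefore be adjusted for read depth or given a replicate spread. The paper lists mapped reads per library, which were not used here. The anti-PRDM9 antibody was also used on Prdm9KO testes to find intervals that do not depend on PRDM9, and the PRDM9 lists hold no interval shared by both strains. Of all intervals, 2 in the B6 list and 252 in the RJ2 list still overlapped a Prdm9KO interval.

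The remaining classes serve for comparison. Class 1a intervals had DMC1 and H3K4me3 of their own strain only (1650 in B6, 6391 in RJ2), and class 1c intervals had DMC1 without H3K4me3 over 10% (135 and 169). Class 2A intervals had common H3K4me3 and no DMC1 (460 and 438). The interval printed with a share is the 95% Clopper-Pearson interval and describes counting error over sites alone. No test was made between classes, because sites of pooled lists are not replicates. All lists come from many cells, so overlapping intervals need not have lain in the same cell. As a check on the tissue, the starts of 14 of 17 annotated germ cell genes lay under common H3K4me3, among them *Sycp1*, *Sycp3*, *Dmc1* and *Spo11*, while *Ddx4*, *Stra8* and *Mael* did not. The starts of 0 of 10 genes of liver, pancreas, muscle, skin and brain did so.

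The sequence that the zinc fingers read is shown first, since it is what the member rule did not use. A position matrix was learned for each allele on class 1a intervals of odd-numbered autosomes, so that no member took part. The Dom2 matrix was seeded by the word GGTGCTGC, had 17 positions and the consensus NNNGNTGCTGCTNCCNN. The Cst matrix was seeded by CTTTGACC, had 20 positions and the consensus GNCTTGGNCTGTGNCTNNTN. Both strands of the central 200 bp were scanned, and a match was a score reached by 5% of windows 10 kb away from class 1a centres. That was a log2 score of 10.3 for Dom2 and 10.1 for Cst.

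From the B6 members with the highest Dom2 scores, 4 are given with 22 bases on each side of the match, on the strand that the matrix reads (mm9). The capitals mark the matrix match. The gene beside each is the one with the nearest transcription start, which may be far away, and is a place name and not a target.
B6 site, nearest start *Tubb2b* (chr13:34203876-34203936, plus strand, score 20.6): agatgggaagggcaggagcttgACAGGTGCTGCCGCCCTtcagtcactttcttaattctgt
B6 site, nearest start *Acsl1* (chr8:47560385-47560445, plus strand, score 19.996): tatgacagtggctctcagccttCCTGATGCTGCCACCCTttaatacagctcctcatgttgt
B6 site, nearest start *Rnf32* (chr5:29301340-29301400, plus strand, score 19.6): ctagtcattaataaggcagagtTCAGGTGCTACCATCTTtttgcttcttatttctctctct
B6 site, nearest start a *U6* gene (chr3:156984636-156984696, minus strand, score 19.5): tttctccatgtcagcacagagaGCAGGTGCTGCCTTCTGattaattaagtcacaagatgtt

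From the RJ2 members with the highest Cst scores, 4 are given in the same way.
RJ2 site, nearest start *Dupd1* (chr14:22506238-22506301, plus strand, score 22.5): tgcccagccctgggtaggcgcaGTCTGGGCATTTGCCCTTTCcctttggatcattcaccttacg
RJ2 site, nearest start *Rchy1* (chr5:92342186-92342249, plus strand, score 21.9): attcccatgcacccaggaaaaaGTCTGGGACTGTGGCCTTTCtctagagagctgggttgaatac
RJ2 site, nearest start a *SNORA17* gene (chr3:147631134-147631197, plus strand, score 21.6): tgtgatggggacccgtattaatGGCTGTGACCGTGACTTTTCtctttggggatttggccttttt
RJ2 site, nearest start *Gm14340* (chr2:180537414-180537477, plus strand, score 21.5): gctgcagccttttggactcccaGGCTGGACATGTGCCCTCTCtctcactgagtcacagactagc

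The lowest-scoring members are shown for contrast, with the best stretch of the window in capitals although it is no match.
B6 site, nearest start *2010106G01Rik* (chr2:126752665-126752725, plus strand, score 0.43): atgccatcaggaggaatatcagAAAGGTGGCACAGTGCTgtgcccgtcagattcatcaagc
B6 site, nearest start *Msh3* (chr13:93124082-93124142, minus strand, score 0.34): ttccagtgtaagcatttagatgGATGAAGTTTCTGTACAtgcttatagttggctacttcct
RJ2 site, nearest start *Aff4* (chr11:53166041-53166104, plus strand, score -2.11): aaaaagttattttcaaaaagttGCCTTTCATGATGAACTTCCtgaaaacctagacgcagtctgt
RJ2 site, nearest start *Snw1* (chr12:88812273-88812336, minus strand, score -4.35): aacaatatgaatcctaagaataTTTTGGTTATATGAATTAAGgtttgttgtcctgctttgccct

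At the 5% threshold more members than not carried the motif of the allele present in the strain. A Dom2 match was found in 46 of 72 B6 members (63.9%, interval 51.7 to 74.9%), against 500 of 849 class 1a intervals that the matrix had not learned on (58.9%, interval 55.5 to 62.2%). Over all B6 PRDM9 intervals not learned on, 42.3% held a match. A Cst match was found in 178 of 270 RJ2 members (65.9%, interval 59.9 to 71.6%), against 2014 of 3092 held-out class 1a intervals (65.1%, interval 63.4 to 66.8%) and 41.0% of all RJ2 intervals not learned on. With this threshold and window, the members' interval held the class 1a value in both strains. At a stricter threshold, reached by 1% of the moved windows, 41.7% of B6 members and 50.7% of RJ2 members matched, against 34.7 and 48.8% of held-out class 1a intervals. In the central 400 bp, at the 5% threshold for that window, 61.1% of B6 members matched, against 59.5% of held-out class 1a intervals. In RJ2 the members were then below class 1a, with 67.0 against 72.7%.

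Class 2A intervals, which share the common H3K4me3 of the members but lack DMC1, held fewer matches. In B6 these were 56 of 460 intervals (12.2%, interval 9.33 to 15.5%), while RJ2 had 72 of 438 (16.4%, interval 13.1 to 20.2%). Common H3K4me3 intervals in general had a Dom2 match at their centre in 5.68% and a Cst match in 5.29% of 41014 cases. At protein-coding transcription starts the shares were 9.32% for Dom2 and 5.29% for Cst. In windows 10 kb to either side of the members themselves, 3.47% held a Dom2 match in B6 and 5.00% a Cst match in RJ2.

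Matches of the allele that the strain lacks stood near the share that the threshold sets. A Cst match lay in 4 of 72 B6 members (5.56%, interval 1.53 to 13.6%), against 4.61% of class 1a and 4.54% of all B6 intervals. A Dom2 match lay in 21 of 270 RJ2 members (7.78%, interval 4.88 to 11.6%), against 5.23% of class 1a and 6.97% of all RJ2 intervals. The median score of the own matrix was 13.2 in B6 members and 12.0 in held-out class 1a intervals, with quartiles of 9.15 and 16.1 in the members. In RJ2 the medians were 13.3 in members and 13.1 in held-out class 1a intervals.

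**Figure D1:**
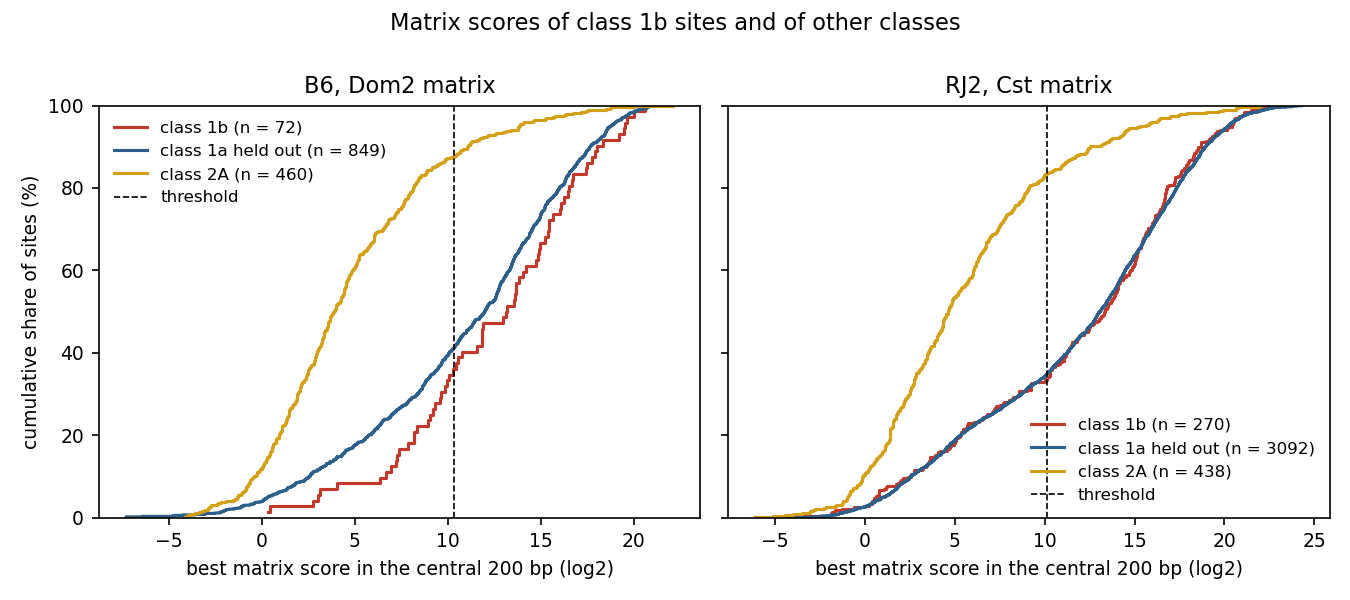
Cumulative share of sites (%) by their best matrix score in the central 200 bp (log2 scale), for class 1b, held-out class 1a and class 2A, with the match threshold dashed. In both strains the class 1b curve runs close to the class 1a curve, and class 2A lies to the left of both, with 12.2% of sites in B6 and 16.4% in RJ2 past the threshold.

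The place of the match within the window was much alike in the classes. The match lay a median of 29.5 bp from the PRDM9 centre in the 46 matched B6 members (quartiles 10 and 51.5 bp) and of 33.0 bp in the 178 matched RJ2 members (quartiles 16.0 and 60.8 bp). In all matched class 1a intervals the medians were 32.5 bp in B6 and 31.0 bp in RJ2, and in the matched class 2A intervals 40.5 and 33.5 bp. The window reached 100 bp to each side, so a larger distance could not be seen.

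The DMC1 distances that follow are a description, because classes 1b and 1a were both chosen by overlap with the central 400 bp of a DMC1 interval, which bounds them. PRDM9 intervals of members had a median width of 512.5 bp in B6 and 625 bp in RJ2, against 511.5 and 595 bp in class 1a. The DMC1 centre lay a median of 78.5 bp from the PRDM9 centre in B6 members (quartiles 38.8 and 138.5 bp) and 87.0 bp in RJ2 members (quartiles 44.2 and 158 bp). The class 1a medians were 81.0 and 87.0 bp. DMC1 intervals were a median of 2107 bp wide in B6 members and 1772 bp in RJ2 members, against 2035 and 1796 bp in class 1a.

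The common H3K4me3 intervals of members differed in width from the strain-specific intervals of class 1a, which come from other lists. They were a median of 2446 bp wide in B6 members (quartiles 1173 and 3980 bp, range 310 to 9414 bp) and 2105 bp in RJ2 members (quartiles 986 and 3662 bp, range 328 to 12763 bp). The strain-specific intervals of class 1a had medians of 1198.5 bp in B6 and 1384 bp in RJ2, and those of class 2A, which are common intervals like the members', had medians of 2037 and 1767 bp. All 41014 common intervals had a median of 1097 bp. A wider interval offers more bases in which a site can fall, and these widths were not adjusted for that. The common list also holds 135 intervals of at most 10 bp and 598 of at most 50 bp. Positions alone do not show whether common intervals are whole called peaks or the parts shared by peaks of both strains. Widths and centres are thus compared like with like only against class 2A.

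Members lay off the middle of their common H3K4me3 intervals, as class 2A sites did. The H3K4me3 and PRDM9 centres were a median of 480.5 bp apart in B6 members and 484 bp in RJ2 members, against 89.0 and 94.0 bp in class 1a and 385.5 and 377.5 bp in class 2A. The H3K4me3 centre was over 1 kb away at 19 of 72 B6 members and 62 of 270 RJ2 members, but at 0 of 1650 and 6 of 6391 class 1a sites, and at 76 of 460 and 84 of 438 class 2A sites. On the way from the middle of the interval to its edge, a PRDM9 centre inside it had gone a median of 46.9% in 63 B6 members and 43.3% in 220 RJ2 members. The same median was 14.5% and 13.4% in class 1a, and 44.9% and 45.4% in class 2A. The rule asked of H3K4me3 only that it cover 10% of the site at any place, so it allowed such offsets.

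**Figure D2:**
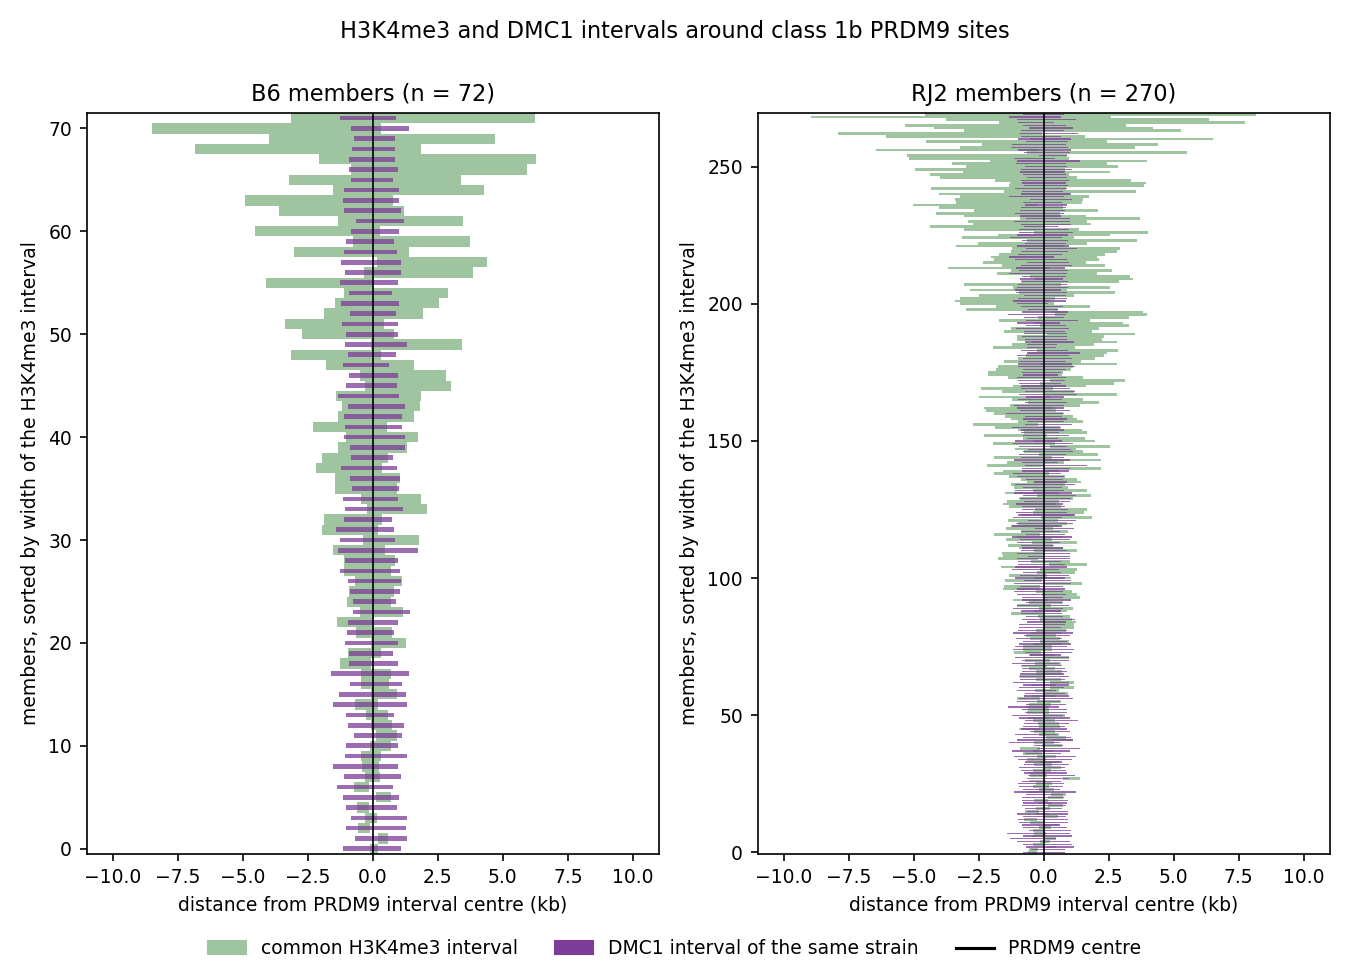
H3K4me3 (green) and DMC1 (purple) intervals at each class 1b member, as distance from the PRDM9 centre (kb), with 1 row per member sorted by the width of its H3K4me3 interval. In the 72 B6 and 270 RJ2 rows the DMC1 centre is at most 337 and 577 bp from 0, which the member rule limits, and wide H3K4me3 intervals reach several kb to either side.

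**Figure D3:**
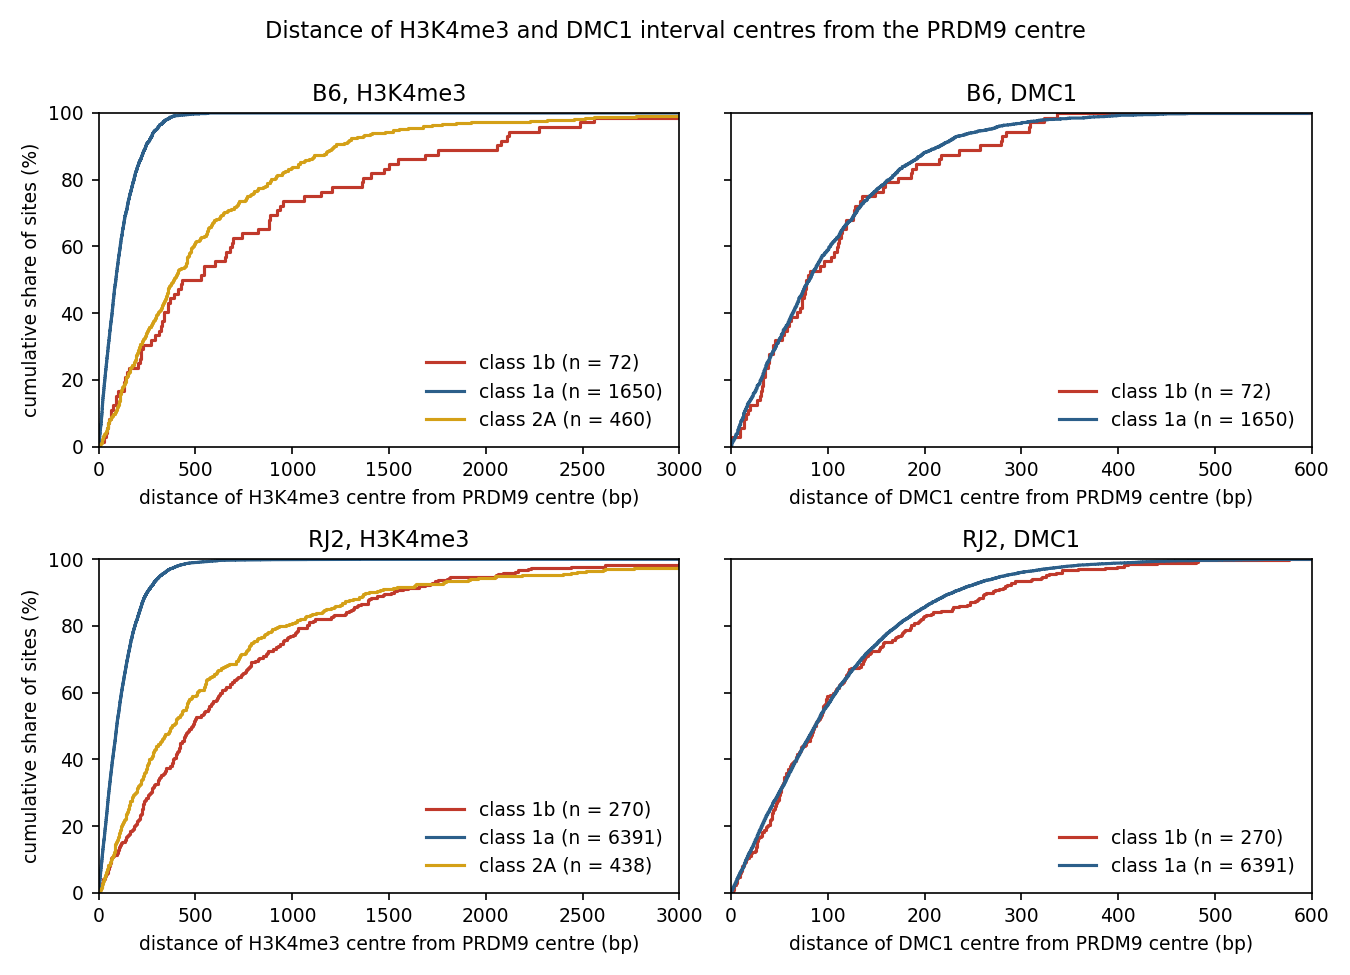
Cumulative share of sites (%) by the distance (bp) of the H3K4me3 centre (left) and the DMC1 centre (right) from the PRDM9 centre, in B6 and RJ2. Class 1b and class 1a curves overlie each other for DMC1, with medians of 78.5 and 81.0 bp in B6, and lie apart for H3K4me3, with medians of 480.5 and 89.0 bp. Distances above 3 kb (left) and 600 bp (right) are not drawn.

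Cover was complete at most members. Common H3K4me3 covered the whole PRDM9 interval in 49 of 72 B6 members and 153 of 270 RJ2 members. The smallest cover among B6 members was 17.8%, at chr12:48436494-48436880, followed by 18.4% at *Wnk4*. The nearest DMC1-marked B6 interval outside the rule had 8.37% (chr8:74475520-74476391, near *Zfp961*). In RJ2 the smallest cover of a member was 12.8% (chr5:21079259-21079930, near *Gm6543*), and the nearest interval outside had 9.93% (chr10:83182121-83182563, near *1500009L16Rik*). Only 5 DMC1-marked intervals in B6 and 10 in RJ2 had a cover above 0 and under 10%.

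The median width of intervals falls from the top of each list to the bottom, although the lists are not sorted by width. Members stood towards the top. In B6 the 5 equal parts of the list held 26, 16, 10, 12 and 8 members from top to bottom, with median widths over all intervals of 705 bp in the first part and 334 bp in the last. In RJ2 they held 85, 68, 47, 45 and 25 members, with median widths of 858 and 382 bp. The median place of a member was 36.4% of the way down in B6 and 34.9% in RJ2, against 44.2 and 38.4% in class 1a and 48.2 and 61.6% in class 2A. The share of members in the upper 50% of the list was 65.3% in B6, with an interval of 53.1 to 76.1%, and 67.8% in RJ2, with 61.8 to 73.3%, against 56.8% of B6 and 62.0% of RJ2 class 1a intervals.

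The first B6 members in the list were an intronic site at chr1:61842972-61843789, another at chr2:126752312-126753188 with a Cst but no Dom2 match, the *Slc1a2* and *Atxn2* promoter sites described below, and an intergenic site at chr14:87560875-87561318, 20066 bp upstream of *Diap3*, a formin that nucleates actin filaments. In RJ2 they were sites whose nearest starts were those of *C2cd4b* (chr9:67583051-67583772), *Tmem63c*, *Rfx4* (chr10:84182718-84184121), *Zfp191* and *Ide*, the insulin-degrading enzyme (chr19:37338252-37339131). The widest B6 member, 18233 bp from the *Tubb2b* start, spanned 1035 bp (chr13:34203473-34204507) and also had the highest Dom2 score. The widest RJ2 member spanned 2072 bp and lay 19416 bp upstream of *Rai1* (chr11:59898063-59900134), was covered to 13.6% and held no Cst match.

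About 1 in 5 members lay near a transcription start. Such members are called promoter members by this distance alone, and starts of any annotated gene type counted. The nearest start was that of a protein-coding gene at 11 of the 14 B6 and 46 of the 54 RJ2 members. The others include a *SNORD18* gene, whose start need not be a promoter. Within 1 kb of a transcription start were 14 of 72 B6 members (19.4%, interval 11.1 to 30.5%) and 54 of 270 RJ2 members (20%, interval 15.4 to 25.3%). The class 1a shares were 4.30% in B6 and 4.08% in RJ2, the class 2A shares 88.5 and 67.6%, and the shares over all PRDM9 intervals 20.4% in B6 and 9.82% in RJ2. H3K4me3 marks promoters, so this share is tied to the rule. The B6 members as a whole stood no higher than the B6 list, which holds many class 2A promoter sites.

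Few members at promoters sat on the start itself. None of the 14 B6 members and 2 of the 54 RJ2 members (3.70%) had their centre within 100 bp of it. Of all PRDM9 intervals within 1 kb of a start, 49.1% did so in B6 and 15.3% in RJ2, and of those in class 1a 14.1 and 15.3%. The median distance was 244 bp among the B6 members and 528 bp among the RJ2 members, against 385 and 410 bp in class 1a, 79.0 and 277 bp in class 2A and 103 and 372.5 bp in all intervals within 1 kb of a start. In B6 5 lay upstream and 9 downstream, in RJ2 21 and 33. Matches were found at 7 of 14 promoter members in B6 (50%, interval 23.0 to 77.0%) and 26 of 54 in RJ2 (48.1%, interval 34.3 to 62.2%), against 39 of 58 (67.2%, interval 53.7 to 79.0%) and 152 of 216 (70.4%, interval 63.8 to 76.4%) of the members elsewhere. This split of the members was made after their values were seen.

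Among the 14 B6 promoter members, 7 had a Dom2 match. They lay 104 bp inside *Slc1a2*, which encodes a glutamate transporter (chr2:102499290-102499794), and 219 bp upstream of *Atxn2*, an RNA-binding protein (chr5:122160810-122161443). A further match lay 156 bp inside *Acbd5*, a peroxisomal acyl-CoA-binding protein (chr2:22924723-22925282), in a coding exon. At *Rpf2*, a ribosome assembly factor, the match had a score of 19.2, the highest of the group, and the site was 475 bp upstream (chr10:39966930-39967589). The *Wnk4* site, in a coding exon of a kinase that controls salt transport in the kidney, was 207 bp inside the gene (chr11:101137923-101138411) and covered to only 18.4%. The remaining matches were at the lincRNA gene *Gm15506* (chr7:105850682-105851567) and at a *SNORD18* gene (chr9:64022271-64023031).

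The other 7 B6 promoter members had scores from 0.34 to 9.98. They were at *Msh3*, a mismatch repair protein, in its UTR (chr13:93123881-93124521), *Nop10*, a part of the H/ACA ribonucleoprotein (chr2:112101961-112102566), *Insig2*, which restrains sterol synthesis (chr1:123223511-123224062), *Tmem115* (chr9:107435554-107436260), *Sertad2* (chr11:20547059-20547675), *Pkd2l2*, a polycystin-family channel (chr18:34569200-34569705), and the noncoding *4933406D12Rik* (chr2:146367595-146367952). Their common H3K4me3 intervals ranged from 1150 bp at *Msh3* to 5828 bp at *Sertad2*. All 7 were covered in full.

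Of the 14 RJ2 promoter members first in the list, 5 had a Cst match. The highest of these scores was 19.4, at *Cast*, the calpain inhibitor, 587 bp upstream of the nearest start and annotated as intron (chr13:74871858-74872565). It was 17.6 at *Dnaja1*, a chaperone of the HSP40 family (chr4:40670155-40671547), 15.9 at *Cnksr3* (chr10:3133811-3134340), 15.5 at *Tmem63c* (chr12:88362162-88363465) and 14.8 at *Eri3*, an exonuclease (chr4:117223323-117225121). The 9 without a match were at *Zfp191*, *Hsd17b1*, an enzyme of oestradiol synthesis, *A2m*, a protease inhibitor of plasma, *Dlgap4*, *Dlec1*, *Ift57*, a part of the machinery that builds cilia, *Gm10631*, *Gtf2h4*, a subunit of the transcription factor TFIIH, and *Fbxo34*. The *Dlgap4* member was 1831 bp wide with its DMC1 centre 577 bp away, the largest such distance of any RJ2 member (chr2:156547059-156548889).

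Members did not have the base composition of CpG islands. A centre was called CpG-rich when its central 200 bp had at least 55% GC and a CpG ratio (observed over expected) of at least 0.65. None of 72 B6 members (interval 0 to 4.99%) and 3 of 270 RJ2 members (1.11%, interval 0.23 to 3.21%) were so, against 0.12 and 0.047% of class 1a, 67.0 and 21.7% of class 2A, and 12.8 and 1.93% of all PRDM9 intervals in B6 and RJ2. In B6 the members' interval held the class 1a value and lay below that of the whole list. In RJ2 it lay above the class 1a value and held that of the whole list. The median GC content was 45.5% in B6 members and 47.0% in RJ2 members, close to 45.0% in class 1a of both strains, and below 61.0 and 54.5% in class 2A. The CpG ratio was 0.24 in B6 members and 0.20 in RJ2 members, against 0.15 in class 1a of both strains and 0.83 and 0.48 in class 2A. Among the 14 B6 promoter members it was 0.45.

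Most members lay in introns or between genes. The PRDM9 centre was in an intron at 35 of 72 B6 members (48.6%) and 136 of 270 RJ2 members (50.4%), and intergenic at 29 (40.3%) and 107 (39.6%). It was in a coding exon at 6 B6 members and 13 RJ2 members, and in a UTR at 2 and 7, and 7 RJ2 members lay in noncoding exons. Introns held 47.9% of class 1a sites in either strain. Members were nevertheless nearer to starts than class 1a, with a median of 4491 bp in B6 and 5342 bp in RJ2, against 23272 and 24110 bp. They were further from starts than class 2A, with 89 and 508.5 bp. H3K4me3 marks promoters, so these distances are tied to the rule. Members were found on every autosome, and 1 in B6 and 4 in RJ2 lay on the X chromosome.

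PRDM9 binding in Spo11KO testes was not used to choose members. It was found at 29 of 72 B6 members (40.3%, interval 28.9 to 52.5%), against 849 of 1650 class 1a intervals (51.5%, interval 49.0 to 53.9%), 0 of 460 class 2A intervals (interval 0 to 0.80%) and 35.5% of all B6 intervals. The Spo11KO list is shorter, with 1070 intervals, and its overlap follows the place in the B6 list. In the upper 50% of the list 27 of 47 members overlapped it (57.4%, interval 42.2 to 71.7%), against 672 of 937 in class 1a (71.7%, interval 68.7 to 74.6%). In the lower 50% it was 2 of 25 members (8%, interval 0.98 to 26.0%), against 177 of 713 (24.8%, interval 21.7 to 28.2%). The members' share was thus below that of class 1a in both parts of the list, with intervals that overlap.

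Within the members the overlap was unequal between promoters and other places. Among members away from a start, 27 of 58 (46.6%, interval 33.3 to 60.1%) lay under a Spo11KO interval, and 26 of 35 (74.3%, interval 56.7 to 87.5%) in the upper 50% of the list. At promoters it was 2 of 14 (14.3%, interval 1.78 to 42.8%), the *Slc1a2* and *4933406D12Rik* sites, and 1 of 12 in the upper 50%. Class 1a sites at promoters overlapped in 28 of 71 cases (39.4%, interval 28.0 to 51.7%). This comparison was made after the values were seen and rests on 14 sites.

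**Figure D4:**
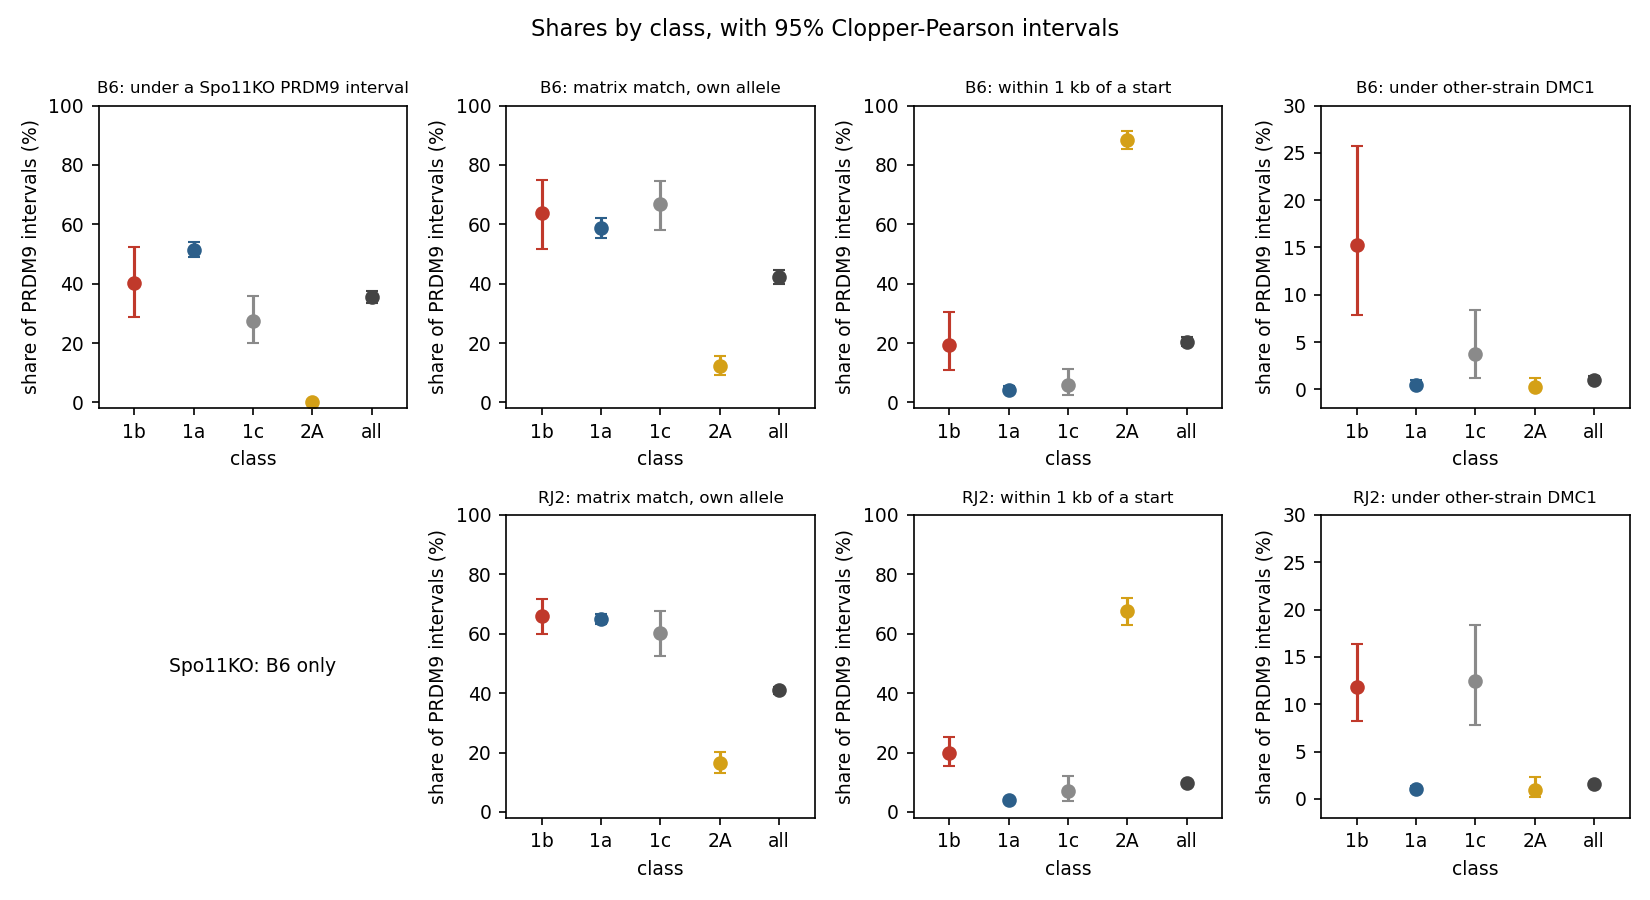
Share of PRDM9 intervals (%) with each feature, in class 1b and in classes 1a, 1c, 2A and all intervals of the strain; points are shares and bars are 95% Clopper-Pearson intervals. For the matrix, class 1a and all exclude the intervals learned on. Class 1b lies beside class 1a for the matrix (63.9 and 58.9% in B6), above class 1a and below class 2A for transcription starts (19.4, 4.30 and 88.5% in B6), and above class 1a for other-strain DMC1 (15.3 and 0.48% in B6); the axis of the last column ends at 30%.

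DMC1 of the other strain was present at some members. An RJ2 DMC1 interval covered part of 11 of 72 B6 members (15.3%, interval 7.88 to 25.7%), against 8 of 1650 class 1a intervals (0.48%, interval 0.21 to 0.95%), and 1% of all B6 intervals. A B6 DMC1 interval did so at 32 of 270 RJ2 members (11.9%, interval 8.25 to 16.3%), against 68 of 6391 class 1a intervals (1.06%, interval 0.83 to 1.35%) and 1.54% of all RJ2 intervals. When the overlap was limited to the central 400 bp of the other strain's DMC1 interval, as in the member rule, the shares were 5.56% of B6 members and 7.41% of RJ2 members. The other classes are given for the whole DMC1 interval only, so these 2 shares cannot be set against theirs. Class 1a was chosen by H3K4me3 that the other strain lacks, so its low share is tied to its own rule. The members were chosen by H3K4me3 present in the other strain as well, so their higher share is tied to their rule too. Class 1c was chosen by the lack of H3K4me3 over the cover limit, which is also a condition on the mark. Its shares were 3.70% in B6 and 12.4% in RJ2. Class 2A, with common H3K4me3 but no DMC1 of its own strain, had 1 of 460 intervals in B6 and 4 of 438 in RJ2. How far the class rules alone set these shares was not tested. Of all DMC1 intervals, 437 in B6 (2.96%) and 437 in RJ2 (2.88%) overlapped one of the other strain.

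Such members had narrower common H3K4me3 intervals, whose centres lay mostly on the side of the other strain's DMC1 centre. Their H3K4me3 was a median of 742 bp wide in the 11 B6 members and 819 bp in the 32 RJ2 members, against 2780 bp in the 47 B6 members and 2232.5 bp in the 186 RJ2 members with neither a start within 1 kb nor other-strain DMC1. The other-strain DMC1 centre was a median of 664 bp from the PRDM9 centre in B6 members and 440.5 bp in RJ2 members. The H3K4me3 centre lay on the side of that DMC1 centre in 10 of 11 B6 members (90.9%, interval 58.7 to 99.8%) and 23 of 32 RJ2 members (71.9%, interval 53.3 to 86.3%). It lay between the PRDM9 centre and the other-strain DMC1 centre in 8 and 17 of them. These counts were made after the values were seen, and a common interval must be shared by both strains by its definition. If common intervals are only the shared parts of peaks, both their width and their side could follow from how the list was made. This was not tested.

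**Figure D5:**
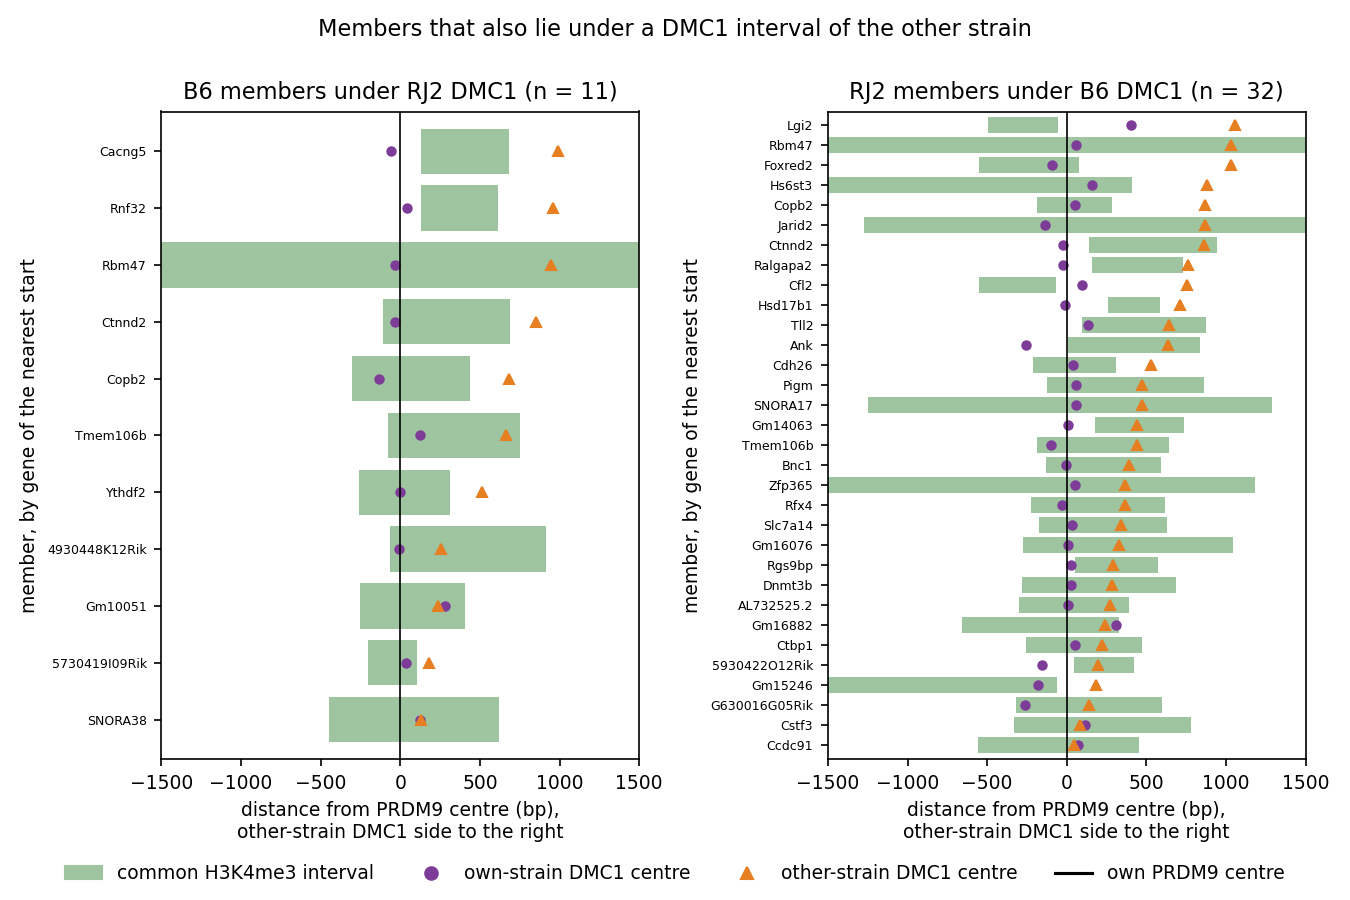
Members under a DMC1 interval of the other strain, 11 in B6 and 32 in RJ2, as distance from the own PRDM9 centre (bp) with the other-strain DMC1 side to the right. The green bars are common H3K4me3 intervals, cut off at 1500 bp, circles are own-strain DMC1 centres and triangles other-strain ones; the circles stay near 0, and most bars extend to the right.

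A separate PRDM9 interval of the other strain lay nearby at few members. Peaks shared by both strains are not in the lists, so an other-strain interval that overlapped a member could not be counted. An RJ2 PRDM9 interval came within 2 kb of the centre of 6 of 72 B6 members (8.33%, interval 3.12 to 17.3%), against 2.11% of all B6 intervals. A B6 interval came within 2 kb of 6 of 270 RJ2 members (2.22%, interval 0.82 to 4.77%), against 0.543% of all RJ2 intervals. In class 2A it was 20 of 460 intervals in B6 and 12 of 438 in RJ2. Class 1c had 2 of 135 and 4 of 169, and class 1a 18 of 1650 and 17 of 6391. In RJ2 the members thus stood near classes 2A and 1c. All 6 B6 members were among the 11 with RJ2 DMC1, and 5 of the 6 RJ2 members were among the 32 with B6 DMC1.

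Each member was assigned the common H3K4me3 interval that it overlapped most. At 3 places a single such interval held a member of each strain. PRDM9 intervals of both alleles and DMC1 of both strains thus lay side by side there. A further common interval of 742 bp near *Copb2* (chr9:98478590-98479331) held a B6 member and also met an RJ2 member assigned to a neighbouring interval. It is not among the 3. The absence of shared PRDM9 peaks from the lists bounds the count of such places as well. In an intron of *Ctnnd2*, which encodes a catenin of neurons, the RJ2 centre was 830 bp from the B6 centre (interval chr15:30255794-30256595, 802 bp). In an intron of *Rbm47*, an RNA-binding protein, it was 1002 bp away (interval chr5:66559004-66567357, 8354 bp). Near *Tmem106b*, which encodes a lysosomal membrane protein, it was 566 bp away in an intergenic interval of 831 bp (chr6:13002378-13003208). All 3 B6 members were late in the B6 list, at positions 2229, 2387 and 2076 of 2601, and none overlapped a Spo11KO interval. The best matrix stretch of each member is printed, which need not be the bases that PRDM9 bound.
*Ctnnd2*, Dom2 (chr15:30255880-30255940, plus strand, score 13.8): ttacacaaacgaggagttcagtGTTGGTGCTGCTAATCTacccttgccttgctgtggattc
*Ctnnd2*, Cst (chr15:30256762-30256825, plus strand, score 17.8): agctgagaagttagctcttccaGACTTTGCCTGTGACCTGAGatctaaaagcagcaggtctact
*Rbm47*, Dom2 (chr5:66560959-66561019, minus strand, score 10.8): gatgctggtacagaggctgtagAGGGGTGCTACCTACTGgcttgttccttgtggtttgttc
*Rbm47*, Cst (chr5:66562054-66562117, minus strand, score 21.1): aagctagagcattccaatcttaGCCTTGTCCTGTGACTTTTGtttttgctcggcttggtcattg
*Tmem106b*, Dom2 (chr6:13002399-13002459, minus strand, score 7.38): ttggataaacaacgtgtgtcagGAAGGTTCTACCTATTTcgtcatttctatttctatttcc
*Tmem106b*, Cst (chr6:13002922-13002985, minus strand, score 16.7): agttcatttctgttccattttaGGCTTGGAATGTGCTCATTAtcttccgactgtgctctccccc

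Of these 6 stretches 5 passed the threshold of their matrix, and the Dom2 stretch near *Tmem106b* did not. The printed Cst match at *Ctnnd2* lay outside the common interval, so that only *Rbm47* had both printed stretches inside it as matches. The B6 member at *Ctnnd2* also held a Cst match, with a score of 11.2. That match was in its central 200 bp, which lie inside the common interval. Among the other members under other-strain DMC1, an RJ2 member was in a coding exon 4269 bp upstream of the nearest start of *Dnmt3b*, the de novo DNA methyltransferase (chr2:153486883-153487655), and held no Cst match. Another was 3658 bp inside *Jarid2*, a component of Polycomb complexes (chr13:44832758-44833375), with a Cst match of score 13.997. These sites were picked after their values were seen and stand for no group of genes.

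Strain-specific H3K4me3 was also counted near members, where the common mark is set by the rule. None of 72 B6 members (interval 0 to 4.99%) and 21 of 270 RJ2 members (7.78%, interval 4.88 to 11.6%) had H3K4me3 specific to their own strain within 2 kb of the centre. Class 2A had 3.04% in B6 and 5.71% in RJ2, and all PRDM9 intervals, most of which are class 1a and chosen for this mark, had 65.2 and 69.0%. H3K4me3 specific to the other strain lay within 2 kb of 6 B6 members (8.33%) and 7 RJ2 members (2.59%), against 4.13 and 2.28% of class 2A and 4.81 and 1.59% of all intervals, all inside the members' intervals of 3.12 to 17.3% and 1.05 to 5.27%. No B6 member overlapped a Prdm9KO interval, and 2 RJ2 members did, with nearest starts at *Slc23a1* (chr18:35784227-35785291) and *Gm16076* (chr1:69095374-69095901). The second held a Cst match with a score of 18.3 and also lay under a B6 DMC1 interval.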

How the data were processed

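The deposited files are lists of interval positions on mm9 with no score, count or signal, and their unit is other: a start and an end in base pairs. The authors mapped PRDM9 reads with Bowtie2, H3K4me3 reads with Bowtie (the methods name Bowtie2 as well) and DMC1 single-stranded fragments with a modified BWA, called peaks with MACS, kept PRDM9 and DMC1 peaks by the irreproducible discovery rate on pooled replicates, and kept H3K4me3 peaks called in all of several read sets. Per the methods, PRDM9 peaks over Prdm9KO peaks were removed, although 252 RJ2 and 2 B6 intervals of the deposited lists overlap one. Peaks shared by B6 and RJ2 are not in the lists used. The methods rank peaks by p-value, which the lists do not hold. No depth per sample is in the lists.

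From 9 lists, classes, overlaps (1 bp), cover, centres and distances were computed with Python 3.11.15, numpy 2.4.6 and scipy 1.17.1, and figures with matplotlib 3.10.9. Sequence and genes came from NCBIM37 (the mm9 assembly) with GENCODE vM1. Matrices were built in 3 rounds from the word of 8 bases most over-represented in the central 200 bp of class 1a intervals of odd-numbered autosomes, against the same intervals moved by 10 kb. Named sites are the first 5 and 3 widest members per strain, all B6 and the first 14 RJ2 members at starts, members in intervals of both strains, over Prdm9KO, under other-strain DMC1 or near the cover limit, and those of the highest and lowest scores. *Dnmt3b* and *Jarid2* were picked from these, and the counts by promoter or other-strain DMC1 were added, after values were seen. The members and lists were chosen with earlier results of these data known. The 10 H3K36me3 libraries were not analysed here. Methods were tested on simulated data.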

Additional observations from a re-analysis of the deposited data

How the results depend on the processing

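Of 50 alternative values for 9 results, 40 stayed within the limits set (1.5 times for a count, the 95% interval for a share). Members numbered 47 in B6 in the upper 50% of the list, and 153 in RJ2 when full cover was required. The Spo11KO share of B6 members was 57.4% in the upper 50% of the list. Members within 2 kb of a start made up 34.7% in B6 and 34.8% in RJ2, and within 500 bp 9.63% in RJ2, so the promoter share depends on the distance chosen. With the stricter matrix threshold (1% of moved windows) 41.7% of B6 members and 50.7% of RJ2 members matched, against 34.7 and 48.8% of held-out class 1a intervals. With the central 400 bp it was 61.1% of B6 members and 67.0% of RJ2 members, against 59.5 and 72.7% of held-out class 1a intervals. Requiring the central 400 bp of the other strain's DMC1 interval left 5.56% of B6 members and 7.41% of RJ2 members. The other classes are not given under that limit. Leaving out members at starts, an alternative chosen after seeing the data, gave 46.6% for Spo11KO and 67.2 and 70.4% for the own matrix. No paired analysis was possible because the lists pool the replicates, and for the same reason no replicate could be left out. Without depth, an absent interval does not show absent binding, and the single H3K4me3 library per strain limits the common list.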

Other observations

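With each member assigned to the common H3K4me3 interval that it overlapped most, 2 such intervals held more than 1 RJ2 member each, while 0 held several B6 members. By chromosome, the share of PRDM9 intervals that were members was highest on chromosome 13 in B6, with 6 of 116 intervals (5.17%), and on chromosome 14 in RJ2, with 15 of 386 (3.89%). It was lowest on chromosome 3 in B6 (1 of 133, 0.75%) and on chromosome 4 in RJ2 (8 of 687, 1.16%). These counts are small and were not tested.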
